A study of Homo sapiens with 31 samples.

Results

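H460 cells were given the same pair of metabolic drugs, B87 and DMKG, together with either of 2 inhibitors of the MDM2-p53 axis, Nutlin-3 or Rita, and the 2 triple treatments were set against each other. The comparison takes 8 of the 31 libraries of the series, 4 of B87+DMKG+Nutlin-3 (called the Nutlin-3 triple) and 4 of B87+DMKG+Rita (the Rita triple), chosen by their treatment labels alone and by no measured value. Every one of these 8 libraries comes from cells exposed for 6 h to DMKG, dimethyl α-ketoglutarate, at 5 mM and to B87, which is BAY87-2243, at 1 µM. The Nutlin-3 triple had Nutlin-3 at 30 µM in addition, and the Rita triple had Rita at 50 µM, so the inhibitors were not given at matched doses. Reference points are Nutlin-3 without the pair (3 libraries), Rita without the pair (4), B87+DMKG (4) and untreated Control cells (4). H460 is an established human line of non-small cell lung cancer, used at passages 10-15, and each sample joined cells of 2 wells. DMKG and B87 given singly (4 libraries each) complete the 31. They enter the common estimate of the spread and are otherwise cited for single genes only. The stated concern of the series is whether inhibiting MDM2 undoes the changes in transcription that the pair brings about.

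MDM2 is a ubiquitin ligase that binds p53 and sends it for degradation, and MDM2 is itself a p53 target, which closes a negative feedback loop. Nutlin-3 occupies the pocket of MDM2 into which p53 fits and so raises p53. Rita is described as a ligand of p53 that also prevents contact with MDM2, and it is known to act on other processes, including DNA damage signalling. B87 blocks complex I of the respiratory chain, and DMKG is a cell-permeable form of α-ketoglutarate, an intermediate of the tricarboxylic acid cycle and a cofactor of dioxygenases.

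Values are normalized read counts, and a log2 fold change is the difference of mean log2(normalized read count + 1), the Nutlin-3 triple minus the Rita triple unless another pair is named, with the standard error from limma after the ± sign. "Higher" and "lower" without a value mean an adjusted p under 0.05 (limma, Benjamini-Hochberg) over the 16259 rows tested. Group means are given ± SD. The libraries held 63.1 M to 72.1 M reads in the Nutlin-3 triple, against 65.2 M to 73.9 M in the Rita triple. Of the counts below 1000, 55.8% to 59.2% per library of the series were even, so the unit counted may be a read end, in which case the depth is up to 2 times lower. Pairwise Pearson correlations of log2 values ran from 0.986 to 0.992 within the Nutlin-3 triple and 0.989 to 0.992 within the Rita triple, and 0.95 to 0.957 between them. Replicates may be technical, since no label says that they came from separate experiments. The p-values measure the spread between libraries of a group, estimated in common over all 8 groups of the series. No spike-in was used, so each difference is relative to the other transcripts. In bulk RNA, fewer cells with a transcript and less of it per cell cannot be told apart. Keratins marked the line as epithelial (KRT8 at 115723 to 139549 in the Nutlin-3 triple and 122267 to 133687 in the Rita triple), while CDH1, which encodes the epithelial marker E-cadherin, was close to absent, at 0 to 8.21 over the 8 libraries. The summed level of 6 fibroblast markers was 1584 to 1759 in the Nutlin-3 triple, against 1799 to 1918 in the Rita triple, with none of the 5 tested called and COL1A2 at 0 to 4.93 over the 8 libraries. Leukocyte markers summed to 217 to 291 in the Nutlin-3 triple and 171 to 259 in the Rita triple, and endothelial markers to 3295 to 3949 and 3070 to 3669 in the same order, with CLDN5 at 0 in all 8 libraries and no marker of either list called. The part of other cell types in the results was not tested.

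The triple treatments differed in 7856 of 16259 rows (48.3%), with 3875 higher (23.8%) and 3981 lower (24.5%) in the Nutlin-3 triple. Of these, 2806 rows (17.3%) differed by a log2 fold change of at least 1 in size, 1202 higher and 1604 lower. In 8283 rows (50.9%) the 4 libraries of the Nutlin-3 triple did not overlap the 4 of the Rita triple, 24.4% of all rows with the Nutlin-3 triple on top and 26.5% with it at the bottom, and 44.1% of rows were both called and without overlap. Counts over gene groups are to be read against these shares. The median log2 fold change of all rows was -0.0085, the value beside which the medians of gene groups are given. Equal library totals in place of the deposited scaling moved that median by 0.0959 and gave 4691 rows higher and 3275 lower. Quantile normalization, the other scaling tried, moved it by 0.06 and gave 4365 higher and 3596 lower.

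MDM2 and CDKN1A, the ligase and the cell cycle inhibitor p21 that p53 induces, were higher in the Nutlin-3 triple, whereas PMAIP1, which encodes the BH3-only death protein NOXA, was much lower, and BBC3, which encodes PUMA, was not called. MDM2 (GSHG0006826, chromosome 12, 69195239 to 69239324, positions on hg19 here and below) had 14808, 15651, 12768 and 14618 in the Nutlin-3 triple libraries, against 8017, 7555, 8161 and 7154 in the Rita triple libraries. Every Nutlin-3 triple library lay above every Rita triple library, and the log2 fold change was 0.90 ± 0.09 (limma adjusted p = 2.4e-10). CDKN1A (GSHG0025686, chromosome 6, 36644237 to 36655114) had 46192, 44086, 51535 and 43372 in the Nutlin-3 triple libraries, against 33118, 32238, 33086 and 34338 in the Rita triple libraries, likewise without overlap (0.48 ± 0.10, limma adjusted p = 0.00013). PMAIP1 (GSHG0014085, chromosome 18, 57567192 to 57571538) had 1647, 1544, 1551 and 1847 in the Nutlin-3 triple libraries, against 11769, 12638, 12607 and 12314 in the Rita triple libraries. The difference was -2.91 ± 0.15 on the log2 scale (limma adjusted p = 2e-16). PMAIP1 was high in Rita libraries without the pair too, at 10614 to 11624. BBC3 (GSHG0015949, chromosome 19, 47724079 to 47736023) had 1443, 1203, 1585 and 1199.6 in the Nutlin-3 triple libraries, against 1316, 1395, 1484 and 1647 in the Rita triple libraries, groups that overlap (-0.11 ± 0.18, limma adjusted p = 0.66). The mean levels of BBC3 in B87+DMKG and Control libraries were 231 and 283.

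**Figure D1:**
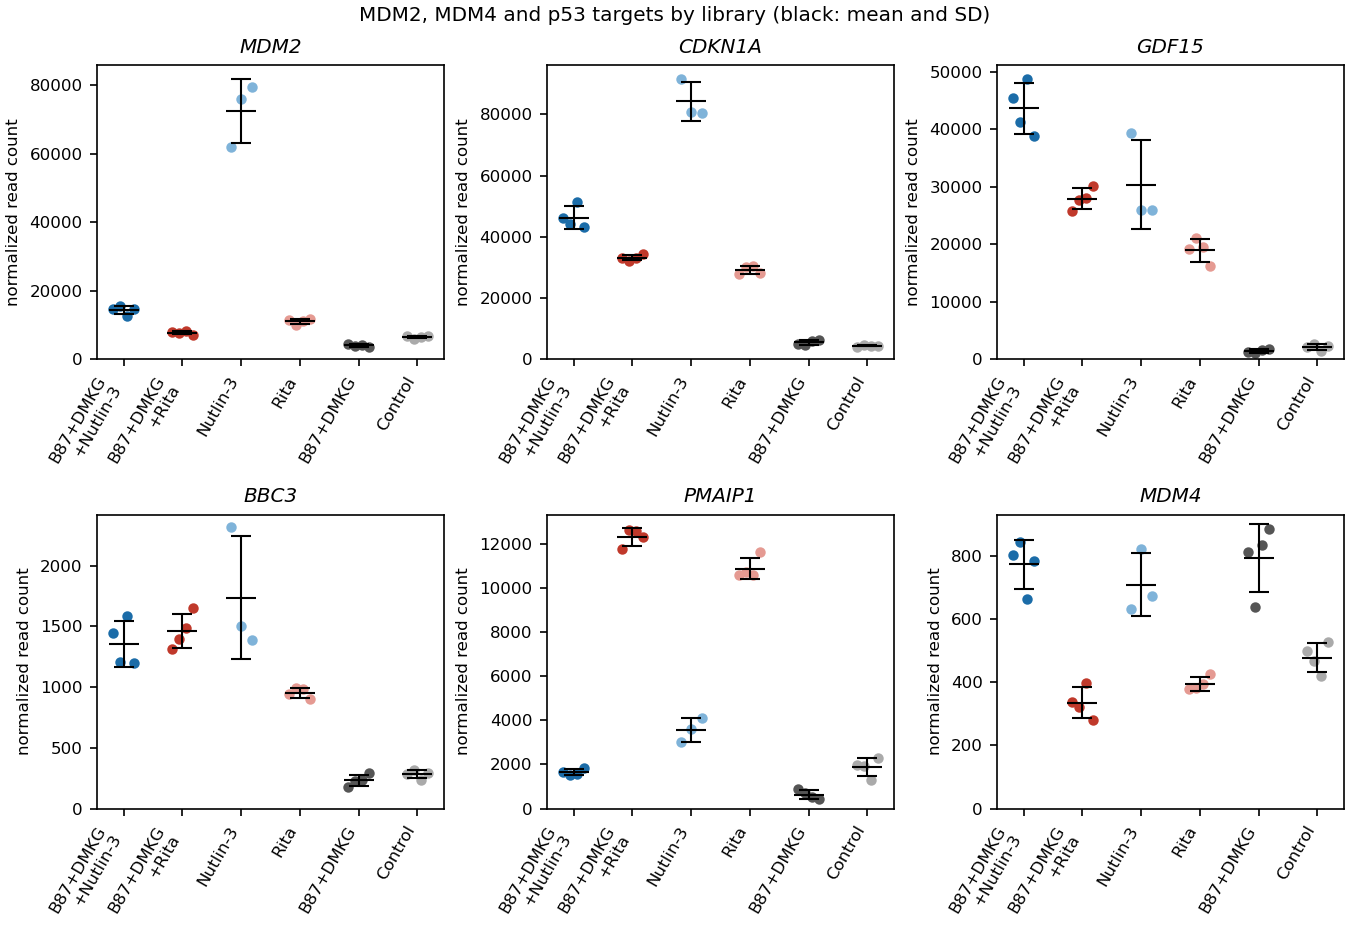
Normalized read counts (vertical axes, linear, from 0) of MDM2, CDKN1A, GDF15, BBC3, PMAIP1 and MDM4 in each library of 6 groups, with the mean and SD in black. MDM2 averages 14461 in the Nutlin-3 triple and 7722 in the Rita triple, against 72583 in Nutlin-3 and 11099 in Rita libraries, while PMAIP1 is high in both groups with Rita.

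GDF15, a secreted stress cytokine and p53 target, was higher in the Nutlin-3 triple, with 45549, 41383, 48793 and 38929 in the Nutlin-3 triple libraries, against 25817, 27805, 28061 and 30248 in the Rita triple libraries (0.64 ± 0.18, limma adjusted p = 0.004). MDM4, the p53-binding relative of MDM2, was higher as well (1.21 ± 0.13). BTG2, an antiproliferative cofactor of mRNA decay, and PLK2, a polo-like kinase, were lower (-1.03 ± 0.10 and -1.56 ± 0.11).

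Of 12 tested p53 targets in feedback and arrest, 3 were higher and 4 lower, with a median of -0.07 that was above 0 under both other scalings. Among 14 p53 targets in apoptosis, 4 were higher and 4 lower (median 0.15). FAS, a death receptor (0.94), and AEN, an apoptosis-enhancing nuclease (0.90), were on the high side, and SPATA18, a mitochondrial quality control factor (-1.32), and TNFRSF10B, which encodes the TRAIL receptor DR5 (-0.83), on the low side. Of 15 targets in repair and metabolism 2 were higher and 4 lower (median -0.12), but under equal library totals 2 were higher and 0 lower. SESN2, which restrains mTORC1 and was among the lower ones, averaged 2173 in the Nutlin-3 triple and 3161 in the Rita triple (-0.54 ± 0.20), a call lost without 3 of the 8 libraries (highest adjusted p 0.068 by limma).

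For most targets of the feedback and repair lists, the Nutlin-3 minus Rita difference was lower in the presence of B87 and DMKG than in their absence. The feedback and arrest list had 9 higher and 1 lower of 12 in Nutlin-3 against Rita, where 24.8% of all rows were higher and 26.4% lower, and the repair list 11 higher and 1 lower of 15. MDM2 averaged 72583 ± 9402 in Nutlin-3 libraries (SD, n = 3) and 11099 ± 789 in Rita libraries (SD, n = 4), a log2 fold change of 2.70. The difference between the inhibitors changed by -1.80 ± 0.13 with B87+DMKG for MDM2 (limma adjusted p = 1.1e-12) and by -1.05 ± 0.14 for CDKN1A (limma adjusted p = 7.6e-07). For BBC3 the change was -0.94 ± 0.27 (limma adjusted p = 0.0062) and for FAS -1.49 ± 0.20 (limma adjusted p = 4.7e-07). No such change was called for GDF15, at 0.64 with the pair and 0.66 without it, with an interaction of -0.02 ± 0.27 (limma adjusted p = 0.97). Of the 12 feedback targets 9 had an interaction below 0 and 0 above, beside 19.5% and 17.1% of all rows. The apoptosis list had 8 below and 2 above of 14, and the repair list 10 below and 0 above of 15.

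In the BCL2 family, the BH3-only death genes PMAIP1, BCL2L11 and BIK and the survival gene MCL1 were lower in the Nutlin-3 triple, and 4 other members, survival genes and effectors, were higher. BCL2L11, which encodes BIM, had 536, 654, 611 and 566 in the Nutlin-3 triple libraries, against 1767, 1395, 1669 and 1703 in the Rita triple libraries. All 4 Nutlin-3 triple libraries lay below the Rita triple (-1.46 ± 0.09, limma adjusted p = 6.5e-15). MCL1, the survival protein that NOXA binds, had 8882, 10489, 8972 and 9504 in the Nutlin-3 triple libraries, against 20495, 20279, 21621 and 19996 in the Rita triple libraries, with a clear gap between them (-1.12 ± 0.16, limma adjusted p = 4.6e-07). BIK averaged 23 in the Nutlin-3 triple and 69.5 in the Rita triple, a call lost without any of 6 libraries in turn (adjusted p up to 0.066 by limma). Those higher were BCL2L1, which encodes BCL-XL (1.09), BCL2 (0.49), BAX (0.41) and BAK1 (0.27), named after their values were seen. Over the 13 tested members the median was -0.05, above 0 under both other scalings.

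Death receptors and apoptosis inhibitors leaned to the high side, with 8 of 16 higher, 2 lower and a median of 0.23. TNFRSF1A, the main TNF receptor (0.82), and FAS were among the higher genes. Of 9 genes of parthanatos, the death that follows overactive PARP1, 2 were higher and 3 lower, with a median of 0.02. PARP1 (GSHG0002997, chromosome 1, 226548393 to 226595801) had 9777, 9133, 8830.1 and 8669 in the Nutlin-3 triple libraries, against 19089.6, 17807, 18482 and 18624 in the Rita triple libraries. Its level in the Nutlin-3 triple was below that of every other group shown here, with means of 15529.6 in Nutlin-3, 19085 in Rita, 16156 in B87+DMKG and 19595 in Control libraries, and the log2 fold change between the triples was -1.02 ± 0.06 (limma adjusted p = 3.6e-16). NMNAT1, a nuclear enzyme of NAD synthesis, was lower (-0.92), as was the kinase HIPK2 (-0.63, with overlapping libraries), and NAMPT, the rate-limiting enzyme of NAD salvage, was higher (0.57).

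Genes linked to growth factor signalling were split, with most immediate early genes, most MAPK feedback genes and the ligands HBEGF, AREG and EREG lower in the Nutlin-3 triple, while KLF2 was far higher. Signalling itself was not measured. Immediate early genes are switched on within minutes of a stimulus from existing factors, and DUSP, SPRY and SPRED genes encode brakes on MAPK cascades, not all of them on ERK. Of 22 tested immediate early genes, 5 were higher and 12 lower, with a median of -0.53. EGR3, a zinc finger factor, had 0, 4.93, 1.85 and 4.28 in the Nutlin-3 triple libraries, against 54.3, 75.5, 49.5 and 52.9 in the Rita triple libraries. EGR2 had 8.07, 9.86, 3.69 and 3.43 in the Nutlin-3 triple libraries, against 87.6, 58.5, 60.3 and 65.3 in the Rita triple libraries. Both were close to absent in the Nutlin-3 triple and present in each Rita triple library, with log2 fold changes of -4.24 ± 0.81 (limma adjusted p = 5e-05) and -3.34 ± 0.37 (limma adjusted p = 4.1e-09). Both were present in B87+DMKG libraries as well, EGR3 at 20.2 to 62.6 and EGR2 at 44.7 to 82.8. FOSB, a partner of AP-1, had 331, 289, 267 and 246 in the Nutlin-3 triple libraries, against 2349, 2283, 2248 and 2578 in the Rita triple libraries (-3.06 ± 0.30, limma adjusted p = 2.8e-10). Their relative EGR1 was not called, with overlapping values of 19476, 18470.2, 20566 and 17878 in the Nutlin-3 triple and 18212, 17392, 16777 and 17383 in the Rita triple (0.13 ± 0.20, limma adjusted p = 0.63).

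**Figure D2:**
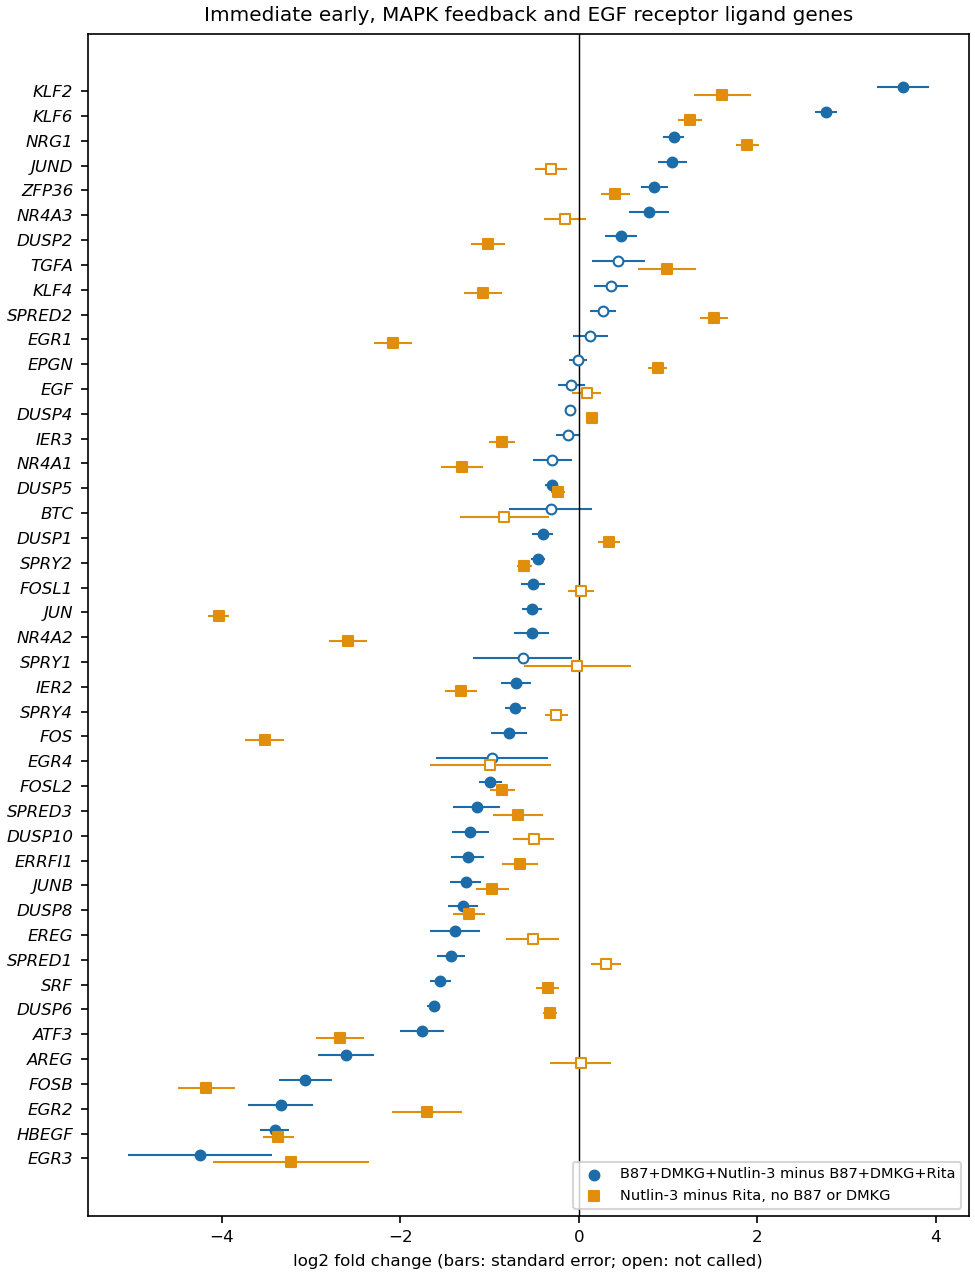
Log2 fold changes (horizontal axis, bars for the standard error) of immediate early, MAPK feedback and EGF receptor ligand genes for the Nutlin-3 triple minus the Rita triple (blue circles) and for Nutlin-3 minus Rita without B87 and DMKG (orange squares), open where not called. KLF2 stands at 3.63 and EGR3 at -4.24 between the triples, and JUN lies at -0.53 between the triples against -4.03 without the pair.

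KLF2, a Krüppel-like factor known from quiescent endothelium and T cells, went the other way (GSHG0014672, chromosome 19, 16435637 to 16439472). It had 7328, 6981, 8492 and 4902 in the Nutlin-3 triple libraries, against 358, 664, 551 and 690.4 in the Rita triple libraries. Each Nutlin-3 triple library was above every other library of the series. B87+DMKG averaged 1404, Nutlin-3 656, Rita 212 and Control 321, and the log2 fold change between the triples was 3.63 ± 0.29 (limma adjusted p = 5e-12). Libraries of DMKG given singly were above Control as well, with KLF2 at 1601, 2705, 3936 and 4388. The other 4 members that were higher, named after their values were seen, were KLF6 (2.77), JUND (1.05), ZFP36 (0.85) and NR4A3 (0.79). JUN and FOS, the core of AP-1, differed by much less between the triples (-0.53 ± 0.11 and -0.78 ± 0.20) than without the pair (-4.03 ± 0.12 and -3.52 ± 0.22). The interaction was 3.51 ± 0.16 for JUN (limma adjusted p = 9.1e-17) and 2.73 ± 0.30 for FOS (limma adjusted p = 1.1e-08), and over the list 14 of 22 had an interaction above 0 and 3 below.

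MAPK feedback genes had 1 member higher and 9 lower of 13, with a median of -0.63. DUSP6, the phosphatase of ERK, had 3636, 4042, 3637 and 4117 in the Nutlin-3 triple libraries, against 11916, 12475, 12295 and 10956 in the Rita triple libraries. The Nutlin-3 triple matched the level of B87+DMKG (3224) and Control (4935) more closely than the Rita triple did, and the log2 fold change was -1.63 ± 0.07 (limma adjusted p = 7.7e-18). SPRED1 (-1.43), DUSP8 (-1.29) and DUSP10 (-1.21) were lower too. The single higher member was DUSP2 (0.47), named after its value was seen. Among 9 genes of EGF receptor signalling, 1 was higher and 4 lower (median -0.31). HBEGF, a membrane-anchored ligand, had 244, 222, 263 and 279 in the Nutlin-3 triple libraries, against 2698, 2608, 2558 and 2846 in the Rita triple libraries (-3.41 ± 0.16, limma adjusted p = 2.1e-17), and without the pair the difference was -3.37, with no interaction called (-0.04 ± 0.24). Amphiregulin, AREG, had 44.4, 28.8, 24.9 and 43.7 in the Nutlin-3 triple libraries, against 245, 212, 194 and 210.4 in the Rita triple libraries, well separated (-2.61 ± 0.31, limma adjusted p = 2.6e-08), whereas it was not called between Nutlin-3 and Rita (0.02 ± 0.34). Its interaction was -2.63 ± 0.46 (limma adjusted p = 3.6e-05). EREG was lower (-1.39), as was ERRFI1, which is no ligand but an inhibitor of the receptor (-1.25), and NRG1, a neuregulin named after its value was seen, was higher (1.06).

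Genes of the integrated stress response were lower in the Nutlin-3 triple, 20 of 26 tested against 1 higher, with a median of -0.56 beside -0.0085 for all rows. Under equal library totals 15 were lower, and with quantile normalization 13. Both triples lay above B87+DMKG for most of these genes, in comparisons that share the B87+DMKG libraries. With Nutlin-3 added 22 were higher and 1 lower (median 1.01), beside 26.5% and 32.3% of all rows. With Rita added 23 genes of this response were higher and 0 lower (median 1.46), beside 33.1% and 34.2% of all rows. In this response, phosphorylated eIF2α lets ATF4 be translated, and ATF4 with C/EBP partners induces genes of amino acid supply through a composite element whose core reads TGATGNAA. Promoters in the RefSeq table (GRCh38.p14, 250 bases before to 50 after each start) were searched for TGATGNAA on both strands. It was found in 5 of the 22 list genes with a promoter in the table (ASNS, CHAC1, SLC3A2, SLC1A5 and CEBPG) and in 4.46% of the 27305 genes of the table, or 3.62% of its 35116 promoters. Windows are shown for the 4 genes whose match lies wholly before the start, each 5′ to 3′ along its gene with 30 bases to either side and the matched letters in capitals. The match of SLC3A2 does not lie wholly before the start and is not shown. The window of ASNS lies at chr7:97872439-97872506, minus strand, that of CHAC1 at chr15:40953232-40953299, plus strand, where the match is on the opposite strand, that of CEBPG at chr19:33374041-33374108, plus strand, and that of SLC1A5 at chr19:46784874-46784941, minus strand. A match describes the letters of the window, not a bound factor.
ASNS: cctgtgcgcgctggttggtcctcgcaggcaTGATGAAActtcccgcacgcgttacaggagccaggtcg
CHAC1: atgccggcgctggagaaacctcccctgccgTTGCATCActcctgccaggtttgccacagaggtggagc
CEBPG: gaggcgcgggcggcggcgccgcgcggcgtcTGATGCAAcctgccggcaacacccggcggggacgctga
SLC1A5: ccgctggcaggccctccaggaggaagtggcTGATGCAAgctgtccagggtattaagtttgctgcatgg

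ASNS, asparagine synthetase (GSHG0028375, chromosome 7, 97481425 to 97601662), had 6194, 6089, 6459.5 and 6163 in the Nutlin-3 triple libraries, against 17129, 15363, 16581 and 16582 in the Rita triple libraries. The Nutlin-3 triple was near the Control mean of 6652 and the Rita triple near that of Rita without the pair, 17498, and the log2 fold change was -1.40 ± 0.12 (limma adjusted p = 2.5e-11). CHAC1, a glutathione-degrading enzyme, had 3109.5, 2813, 3330.5 and 2908 in the Nutlin-3 triple libraries, against 5719, 5804, 5674 and 5778 in the Rita triple libraries, groups that did not overlap. Its call (-0.92 ± 0.36, limma adjusted p = 0.032) was lost when any of 7 of the 8 libraries was left out (adjusted p up to 0.065 by limma). The call was lost with quantile normalization too, but held with limma on the 2 groups alone. The standard error takes in the spread of all groups, and CHAC1 ran from 710 to 3369 in Control libraries and from 12.5 to 69.3 in B87+DMKG libraries. CEBPG, a partner of ATF4 (-0.37), and SLC1A5, a glutamine carrier (-0.36), are named for their windows and were lower by less. ATF4 itself had 45882, 40814, 46686 and 41424 in the Nutlin-3 triple libraries, against 80150.1, 77237, 79185 and 79411 in the Rita triple libraries (-0.86 ± 0.07, limma adjusted p = 1.6e-11).

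**Figure D3:**
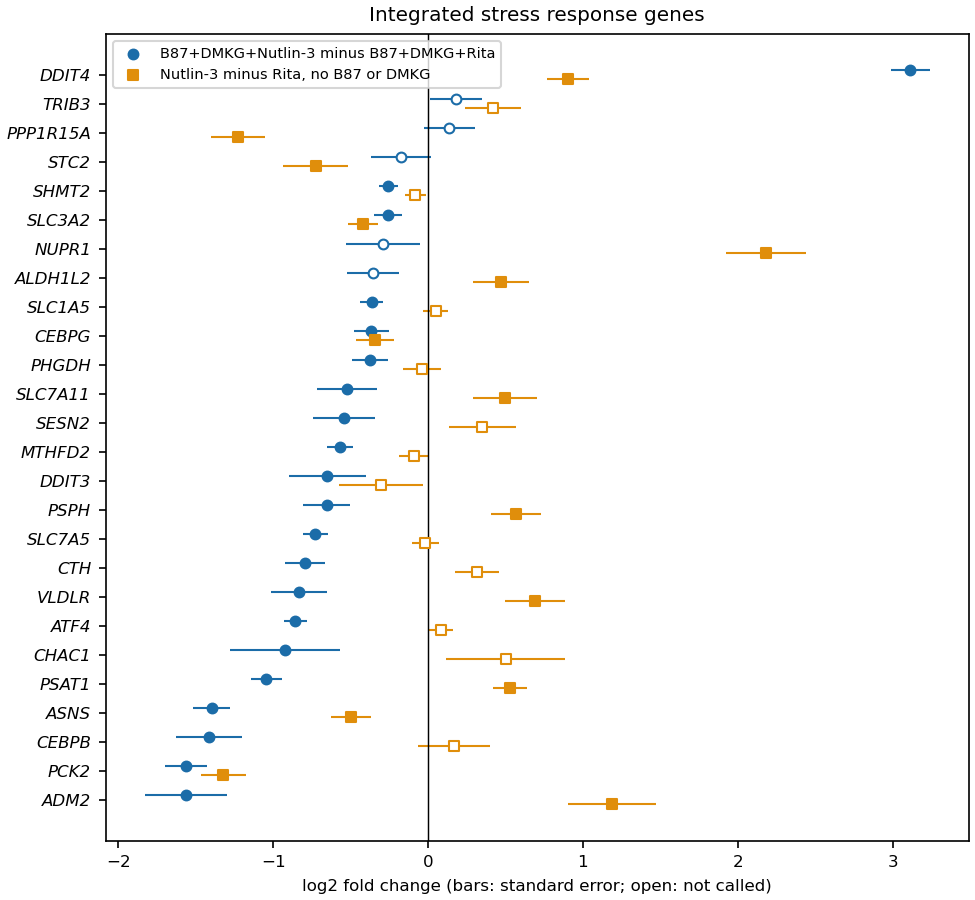
Log2 fold changes (horizontal axis, bars for the standard error) of 26 integrated stress response genes for the Nutlin-3 triple minus the Rita triple (blue circles) and for Nutlin-3 minus Rita without B87 and DMKG (orange squares), open where not called. Between the triples 20 genes lie below 0 as called and 1 called gene, DDIT4, lies above it, at 3.12.

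ADM2, a secreted peptide of the calcitonin family, had 474, 541, 541 and 456 in the Nutlin-3 triple libraries, against 1472, 1374, 1326 and 1811 in the Rita triple libraries (-1.56 ± 0.26, limma adjusted p = 9.4e-06), but was higher in Nutlin-3 than in Rita without the pair (1.19 ± 0.29). The interaction for ADM2 was -2.75 ± 0.39 (limma adjusted p = 1.3e-06). PCK2, mitochondrial PEP carboxykinase, was lower, at -1.56 ± 0.13 with the pair and -1.32 ± 0.15 without it. CEBPB, a C/EBP factor, was lower (-1.41 ± 0.21), and DDIT3, which encodes CHOP, too (-0.65 ± 0.25, a call lost without any of 6 libraries in turn, adjusted p up to 0.07 by limma). TRIB3, a pseudokinase target of CHOP, was not called (0.18 ± 0.17, limma adjusted p = 0.41), though its Nutlin-3 triple libraries all lay above the Rita triple. With limma on the 2 groups alone TRIB3 was higher (limma adjusted p = 0.0071). Without B87 and DMKG the list had 8 higher and 6 lower of 26, and 16 members had an interaction below 0 with 2 above. Of 18 cytosolic aminoacyl-tRNA synthetases, 1 was higher and 7 lower (median -0.06, above 0 under both other scalings), led by WARS (-0.81 ± 0.05), NARS (-0.76 ± 0.11) and IARS (-0.72 ± 0.06). WARS had 16179, 16238, 16750.2 and 16364 in the Nutlin-3 triple, against 29096, 28269, 27986 and 29710.1 in the Rita triple, while without the pair Nutlin-3 was the higher (0.51).

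Genes of protein folding in the endoplasmic reticulum had 1 member higher and 6 lower of 17 (median -0.11), against 13 higher and 1 lower without the pair. HERPUD1, which takes part in the degradation of misfolded proteins, had 5255, 5510.3, 5600.4 and 5628 in the Nutlin-3 triple libraries, against 9887, 9455, 9959 and 9123 in the Rita triple libraries (-0.80 ± 0.12, limma adjusted p = 9.9e-07). In Nutlin-3 libraries HERPUD1 averaged 21457 ± 2240.4 (SD, n = 3), against 6813 ± 859 in Rita libraries (SD, n = 4), and the interaction was -2.46 ± 0.17 (limma adjusted p = 1.1e-12). EDEM1, which extracts misfolded glycoproteins (-0.90), and DNAJC3, a co-chaperone (-0.70), were lower too, while their values were 1.03 and 1.21 without the pair, above 0 as for HERPUD1. XBP1, the factor spliced by IRE1, was lower under both conditions (-0.66 with the pair and -0.53 without). In all, 13 of the 17 genes had an interaction below 0 and 0 above.

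DDIT4, which encodes the mTORC1 inhibitor REDD1 and responds to hypoxia, p53 and ATF4, was much higher in the Nutlin-3 triple (GSHG0003441, chromosome 10, 74033677 to 74035797). It had 490989, 447353, 508204 and 439327 in the Nutlin-3 triple libraries, against 53747, 54379.7, 58165 and 51153 in the Rita triple libraries. The groups were far apart (3.12 ± 0.12, limma adjusted p = 2.5e-19), and the means of 49084 in Nutlin-3, 26131 in Rita, 22408 in B87+DMKG and 40386 in Control libraries were all far below the Nutlin-3 triple. Libraries of DMKG given singly had 132107, 134164, 166008 and 157558, above Control and below the Nutlin-3 triple. The interaction was 2.21 ± 0.18 (limma adjusted p = 2.9e-11). BHLHE40, a repressor induced by hypoxia and linked to the clock, had 34986, 30853, 34994 and 31331 in the Nutlin-3 triple libraries, against 7136, 7344, 7396 and 7239.9 in the Rita triple libraries (2.18 ± 0.10, limma adjusted p = 4.8e-18). VEGFA, the angiogenic factor, went the other way, with 4065, 3909, 4137 and 4018 in the Nutlin-3 triple libraries, against 8499.7, 8129, 8349 and 8425 in the Rita triple libraries (-1.05 ± 0.11, limma adjusted p = 2.2e-09). Of 22 hypoxia response genes, 6 were higher and 5 lower, with a median of -0.15. CA9, a classic target of HIF-1, was at 3.69 to 5.75 in the Nutlin-3 triple and 0.9 to 7.26 in the Rita triple and was not called.

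Glucose uptake genes were higher in the Nutlin-3 triple, whereas most enzymes of glycolysis were not called. SLC2A1, the transporter GLUT1, had 20733, 23876, 24419 and 23180.4 in the Nutlin-3 triple libraries, against 10403, 10811, 10479 and 10531 in the Rita triple libraries (1.12 ± 0.10, limma adjusted p = 4.6e-11), and SLC2A3, GLUT3, was higher as well (0.84 ± 0.10). HK2, hexokinase 2, was higher by 0.32 ± 0.09, HK1 was higher and PGAM1 (-0.33), ALDOC and PGK1 were lower, and the other 14 of 21 were not called (median -0.02, above 0 under both other scalings). Without the pair 13 of these genes were lower in Nutlin-3 than in Rita and 1 higher, and 10 had an interaction above 0 with 0 below. TXNIP and ARRDC4, arrestin genes induced together by the glucose sensor MondoA, differed in direction. TXNIP was higher, with a mean of 642 in the Nutlin-3 triple and 463 in the Rita triple (0.47 ± 0.16), while ARRDC4 had 9.08, 28.8, 9.24 and 8.57 in the Nutlin-3 triple libraries, against 129.7, 107, 122 and 82.9 in the Rita triple libraries (-3.07 ± 0.32, limma adjusted p = 1.7e-09). Nutlin-3 triple replicate 2 was the high one for ARRDC4 and still below the Rita triple. The glucose-sensing list had 3 higher and 1 lower of 7, with a median of -0.0023 that was above 0 under both other scalings.

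Cholesterol synthesis was higher in the Nutlin-3 triple, with 10 of 15 genes higher, 3 lower and a median of 0.38. MVK, mevalonate kinase, had 1652, 1665, 1861 and 1474 in the Nutlin-3 triple libraries, against 617, 662, 678 and 630.3 in the Rita triple libraries (1.36 ± 0.13, limma adjusted p = 4.6e-10). The groups did not overlap, and HMGCS1, the synthase at the head of the pathway, was higher too, with 3716, 4180.3, 3391 and 4421 in the Nutlin-3 triple libraries, against 2183, 2209.8, 2460.5 and 1947 in the Rita triple libraries (0.83 ± 0.12, limma adjusted p = 5e-07). The lower members, named after their values were seen, were LSS (-0.56), FDPS (-0.43) and IDI1 (-0.39). Without the pair 3 were higher and 1 lower. Of 25 genes of the tricarboxylic acid cycle and glutamine use, 4 were higher and 9 lower (median -0.05, above 0 under both other scalings). SUCLA2, a subunit of succinyl-CoA ligase, had 1468, 1461, 1292 and 1447 in the Nutlin-3 triple libraries, against 2727, 2869, 2927 and 2709 in the Rita triple libraries (-0.99 ± 0.08, limma adjusted p = 1.8e-11), and FH, fumarase, was lower (-0.93 ± 0.07).

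TIPARP, a mono-ADP-ribosyltransferase that the aryl hydrocarbon receptor induces and that restrains it, was several times higher in the Nutlin-3 triple (GSHG0021270, chromosome 3, 156392205 to 156424555). It had 5826, 7137, 5478 and 7252 in the Nutlin-3 triple libraries, against 897, 947, 915 and 761 in the Rita triple libraries (2.86 ± 0.11, limma adjusted p = 1.8e-19). Means of 636 in Nutlin-3, 634 in Rita, 1002 in B87+DMKG and 627 in Control libraries were near the Rita triple or below it. The interaction was 2.86 ± 0.16 (limma adjusted p = 1.2e-14). CYP1A1, the receptor's best known target, was higher at 120.1, 149.5, 119 and 127 in the Nutlin-3 triple, against 40.3, 59.5, 59.4 and 42.5 in the Rita triple (1.35 ± 0.34, limma adjusted p = 0.0014), with no interaction called (-0.11 ± 0.50). CYP1B1 was higher (0.75) and the receptor gene AHR lower (-0.77). Of the receptor's list, 4 of 7 genes were higher and 1 lower, with a median of 0.32.

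Oxidative stress genes were called in both directions. Of 19 NRF2 targets 3 were higher and 6 lower (median -0.10, above 0 with quantile normalization), but 6 were higher and 1 lower under equal library totals. HMOX1, heme oxygenase, was not called between the triples (-0.22 ± 0.13, limma adjusted p = 0.16) and was higher in Nutlin-3 than in Rita without the pair (1.41 ± 0.14), with an interaction of -1.63 ± 0.19 (limma adjusted p = 2.9e-08). The regulator gene NFE2L2 was higher (0.40) and GCLM, of glutathione synthesis, lower (-0.40). Of 10 thioredoxin and peroxiredoxin genes 0 were higher and 4 lower (1 and 1 under equal library totals), with PRDX4 at -0.64 ± 0.08. Of 7 metallothionein and zinc genes 0 were higher and 3 lower (median -0.36), with SLC30A1, a zinc exporter, at -1.27 ± 0.14 and MT1X at -0.85, a value left uncertain by near-identical copies that can share reads. Heat shock genes had 3 higher and 4 lower of 14 (median -0.03, above 0 under equal library totals), with HSPA8, the constitutive HSC70, at 0.84 ± 0.10 and the small chaperone HSPB8 at -1.90 ± 0.14. HSPB8 had 59.5, 71.5, 73.9 and 72 in the Nutlin-3 triple libraries, against 265, 261, 271 and 247 in the Rita triple libraries.

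In the NF-kB group 6 of 16 genes were higher and 3 lower, with a median of 0.09. NFKBIA, which encodes the inhibitor IκBα, had 13834, 13114, 14089.6 and 13641 in the Nutlin-3 triple libraries, against 4797, 4769.8, 4746 and 4444 in the Rita triple libraries (1.54 ± 0.08, limma adjusted p = 4.9e-17). The cytokine gene IL6 moved the other way, with 13938, 12707, 13426 and 13980.0 in the Nutlin-3 triple libraries, against 28206, 28706, 28207 and 25622 in the Rita triple libraries (-1.03 ± 0.17, limma adjusted p = 5e-06). CXCL3, a neutrophil chemokine, was higher (0.83). IL6 was not called without the pair (0.11 ± 0.18), and its interaction was -1.14 ± 0.25 (limma adjusted p = 0.00048).

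Genes of mitosis and of DNA damage signalling were higher in the Nutlin-3 triple, while the cyclins E were lower. Of 20 mitotic genes 14 were higher and 1 lower (median 0.36). AURKA, the centrosome kinase, had 7317, 7414, 7108 and 7699.9 in the Nutlin-3 triple libraries, against 3377, 3375, 3429 and 3442 in the Rita triple libraries (1.12 ± 0.06, limma adjusted p = 1.5e-15). The Nutlin-3 triple was at the level of B87+DMKG (7469) and the Rita triple below it. The kinetochore genes CENPF (0.87) and CENPE (0.86) and topoisomerase TOP2A (0.76) were higher too, and PLK1, named after its value was seen, was the lower member (-0.46). Of 16 genes of DNA damage signalling 10 were higher and 3 lower (median 0.45), with TP53BP1, a double-strand break factor, at 1.09 ± 0.10 and BRCA1 at 0.96 ± 0.11. WEE1, the kinase that holds cells before mitosis, was lower, with 331, 359, 325 and 301 in the Nutlin-3 triple libraries, against 868, 949, 887 and 759.9 in the Rita triple libraries (-1.39 ± 0.09, limma adjusted p = 3.6e-14). H2AFX, the histone phosphorylated at breaks, was lower (-1.29 ± 0.13), as was RAD50, named after its value was seen (-0.93 ± 0.18).

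DNA replication genes had 6 higher and 5 lower of 23 (median 0.00023), against 2 higher and 19 lower without the pair, and 15 had an interaction above 0 with 3 below. CCNE1, cyclin E1, which starts S phase, had 343, 317, 339 and 333 in the Nutlin-3 triple libraries, against 1279, 1330.0, 1252 and 1307 in the Rita triple libraries (-1.95 ± 0.09, limma adjusted p = 2.6e-18). RFC4, a clamp loader subunit, had 811, 757, 745 and 616 in the Nutlin-3 triple libraries, against 2446, 2350.5, 2436 and 2478 in the Rita triple libraries (-1.74 ± 0.08, limma adjusted p = 5.4e-18). Both were clear of overlap, and CCNE2 (-0.97) and PCNA, the sliding clamp (-0.88), were lower too. MYC was lower, with a mean of 22079 in the Nutlin-3 triple and 40707 in the Rita triple (-0.88 ± 0.07, limma adjusted p = 2.9e-12). Of 17 genes of ribosome biogenesis 3 were higher and 10 lower (median -0.27), with NOP56, of box C/D particles (-0.68), and RRN3, an initiation factor of RNA polymerase I (-0.74), lower, and WDR43 (0.68) and UTP20 (0.66), factors of the small subunit processome, higher, all without overlap.

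CUL3, the scaffold of a family of ubiquitin ligases that includes the one for NRF2, was the gene with the widest gap between the triples in its list (GSHG0018382, chromosome 2, 225334867 to 225450114). It had 155, 151, 127 and 129 in the Nutlin-3 triple libraries, against 2718, 2702, 2614 and 2881 in the Rita triple libraries. The Nutlin-3 triple was below every other library of the series, with means of 7352 ± 659.6 in Nutlin-3 (SD, n = 3), 5547 ± 209.6 in Rita, 918 ± 139 in B87+DMKG and 8891 ± 441 in Control libraries (SD, n = 4 each). The log2 fold change between the triples was -4.27 ± 0.10 (limma adjusted p = 3.3e-24), against 0.40 ± 0.11 without the pair, and the interaction was -4.67 ± 0.15 (limma adjusted p = 3.1e-20). Relative to B87+DMKG, CUL3 was lower in the Nutlin-3 triple (-2.69) and higher in the Rita triple (1.58), comparisons that share the B87+DMKG libraries. Its relatives CUL5 (-2.71 ± 0.19) and CUL1 (-1.41 ± 0.07) were lower too. Of the 9 tested genes of the cullin list, 6 were lower and 0 higher (median -0.50). The list also holds KEAP1 and RBX1, which are not cullins, and KEAP1, a substrate adaptor, was not called (0.22).

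The machinery of transcription elongation had 7 members higher and 6 lower of 14 (median 0.11). POLR2A, the largest subunit of RNA polymerase II, had 10416, 14715, 12354 and 13849.8 in the Nutlin-3 triple libraries, against 31455, 29405, 29628 and 30766 in the Rita triple libraries (-1.25 ± 0.08, limma adjusted p = 4.7e-14). CCNT1 (-1.51), the cyclin of P-TEFb, and HEXIM1 (-1.13), its inhibitor, were lower. POLR2A was also lower in Nutlin-3 than in Rita without the pair (-2.09 ± 0.09). PPP1R10, a nuclear regulator of a protein phosphatase that acts on RNA polymerase II, was lower with the pair (-1.03 ± 0.13) and higher without it (0.81 ± 0.14). Among 3 tested nuclear-retained RNAs, MALAT1 was higher (8815, 7524, 5205 and 6626 in the Nutlin-3 triple libraries, against 1832, 1159, 2688 and 1608 in the Rita triple libraries, 1.99 ± 0.34, limma adjusted p = 1.2e-05) and KCNQ1OT1 lower (-1.33 ± 0.40), and NEAT1, named after its value was seen, was not called (0.06), for a median of 0.06.

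The largest rises in the Nutlin-3 triple, among genes with a mean of at least 50 and no overlap, were seen in RGL1, MAML2, RGPD1, MAML3, KLF2, ZNF804A, TET1, MB21D2, TMCC1, MARCH1, MEIS1 and RARB. RGL1, an exchange factor for Ral GTPases (GSHG0001261, chromosome 1, 183605182 to 183897685), had 258, 263, 195 and 254 in the Nutlin-3 triple libraries, against 1.75, 7.55, 16.2 and 16.6 in the Rita triple libraries (4.72 ± 0.46, limma adjusted p = 3.5e-10). MAML2, a coactivator of Notch (GSHG0006107, chromosome 11, 95709757 to 96076382), had 329.9, 504, 275 and 494 in the Nutlin-3 triple libraries, against 20.2, 34, 9.9 and 12.4 in the Rita triple libraries (4.42 ± 0.26, limma adjusted p = 4.6e-15). Both genes were low in Rita libraries too, at means of 21.2 for RGL1 and 33 for MAML2, whereas B87+DMKG averaged 217 and 520.4 and Control 194 and 328. MAML3, its relative, had 318, 416, 290.1 and 336 in the Nutlin-3 triple libraries, against 22.8, 34, 17.1 and 24.9 in the Rita triple libraries (3.76 ± 0.16). TET1, an α-ketoglutarate-dependent dioxygenase of 5-methylcytosine, had 156, 201, 173 and 166 in the Nutlin-3 triple libraries, against 14.9, 31.2, 28.8 and 3.11 in the Rita triple libraries (3.46 ± 0.37). For RGL1, MAML2, MAML3, ZNF804A and RARB, a retinoic acid receptor, no interaction was called, and Nutlin-3 was above Rita without the pair as well (5.50, 3.49, 3.53, 3.23 and 3.00 in that order). RGPD1 belongs to a duplicated family whose members can share reads, so its value (4.21 ± 1.16) is uncertain.

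**Figure D4:**
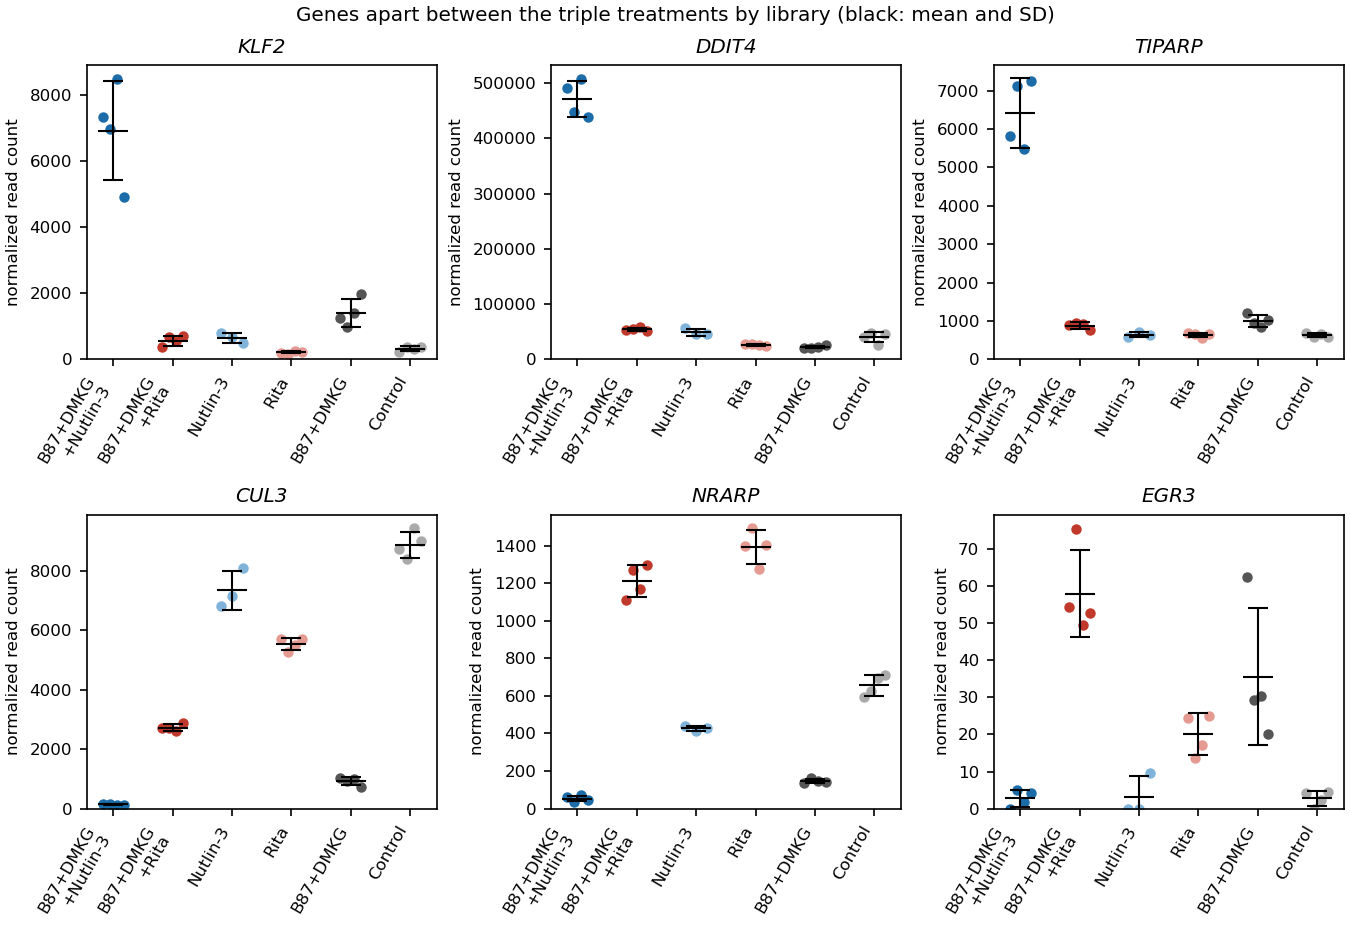
Normalized read counts (vertical axes, linear, from 0) of KLF2, DDIT4, TIPARP, CUL3, NRARP and EGR3 in each library of 6 groups, with the mean and SD in black. The Nutlin-3 triple is the high group for KLF2, DDIT4 and TIPARP, at 6926, 471468 and 6423, and the low one for CUL3 and NRARP, at 141 and 53.3.

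The largest falls were those of FAM71A, ST20-AS1, HIC1, NANOS1, NHLH1, NRARP, CUL3, FAM43A, RND3, ZNF425, HBS1L and C1orf116. FAM71A (GSHG0001433, chromosome 1, 212797787 to 212800120) was at 0 in all 4 Nutlin-3 triple libraries, against 589.8, 350.2, 553 and 623 in the Rita triple libraries. Against a floor of 3 counts per library, it was at least 174.8-fold lower in the Nutlin-3 triple, or at least 87.4-fold if a count is a read end and the floor 6 counts. It was also at 0 in B87+DMKG, Nutlin-3 and Control libraries and averaged 282 in Rita libraries, and its row starts 3669 bases beyond the end of that of ATF3, a stress factor that had 1065, 1195, 1226 and 1258 in the Nutlin-3 triple and 4234, 3867, 3855 and 4066 in the Rita triple (-1.76 ± 0.25, limma adjusted p = 5.5e-07). NRARP, a Notch target that restrains Notch signalling (GSHG0031308, chromosome 9, 140194083 to 140196703), had 60.5, 36.1, 70.2 and 46.3 in the Nutlin-3 triple libraries, against 1109.6, 1269, 1172 and 1298 in the Rita triple libraries (-4.52 ± 0.14, limma adjusted p = 9.8e-22). RND3, an atypical small GTPase, had 153, 177, 141 and 152 in the Nutlin-3 triple libraries, against 2240.2, 1979, 1970.2 and 1874 in the Rita triple libraries (-3.69 ± 0.12, limma adjusted p = 1.2e-21). HIC1, a repressor gene that p53 induces, had 2.02, 4.93, 1.85 and 12 in the Nutlin-3 triple libraries, against 138, 168, 188 and 201 in the Rita triple libraries (-5.09 ± 0.69). In NRARP, RND3 and FAM43A the difference without the pair was -1.70, -1.28 and -1.50, and the interaction was -2.82 ± 0.21, -2.40 ± 0.17 and -2.63 ± 0.38 in that order. HBS1L, a ribosome rescue factor, had 192, 217, 169 and 169.7 in the Nutlin-3 triple libraries, against 2052, 2051, 2112 and 2242 in the Rita triple libraries (-3.50 ± 0.08, limma adjusted p = 1.1e-24), and was slightly higher in Nutlin-3 than in Rita (0.30 ± 0.09). ST20-AS1 is an antisense RNA, and whether the counting used the strand is not given in the sources used here, so its reads cannot be told apart from those of an overlapping gene. Its Nutlin-3 triple libraries held 2.02, 0, 1.85 and 0, so the size of its fall and of its interaction depends on the pseudocount.

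The genes with the largest rises were longer than those with the largest falls. The 12 rises spanned a median of 317 kb from start to end in the table, introns included, against 5.66 kb for the 12 falls and 30.2 kb for all tested rows of 1 gene. Over all of these rows the median log2 fold change between the triples was -0.08 in genes under 10 kb, -0.09 from 10 to 25 kb, -0.06 from 25 to 50 kb, 0.08 from 50 to 100 kb, 0.28 from 100 to 250 kb and 0.50 from 250 kb (n = 723). In that last class 53% of genes were higher and 10.5% lower, beside 23.8% and 24.5% of all rows. The same order held without the pair, with -0.27 under 10 kb and 0.89 from 250 kb. Relative to B87+DMKG, genes from 250 kb had a median of -0.14 in the Nutlin-3 triple and -0.64 in the Rita triple, in comparisons that share the B87+DMKG libraries. Genes are not replicates, and no test is given for this pattern.

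**Figure D5:**
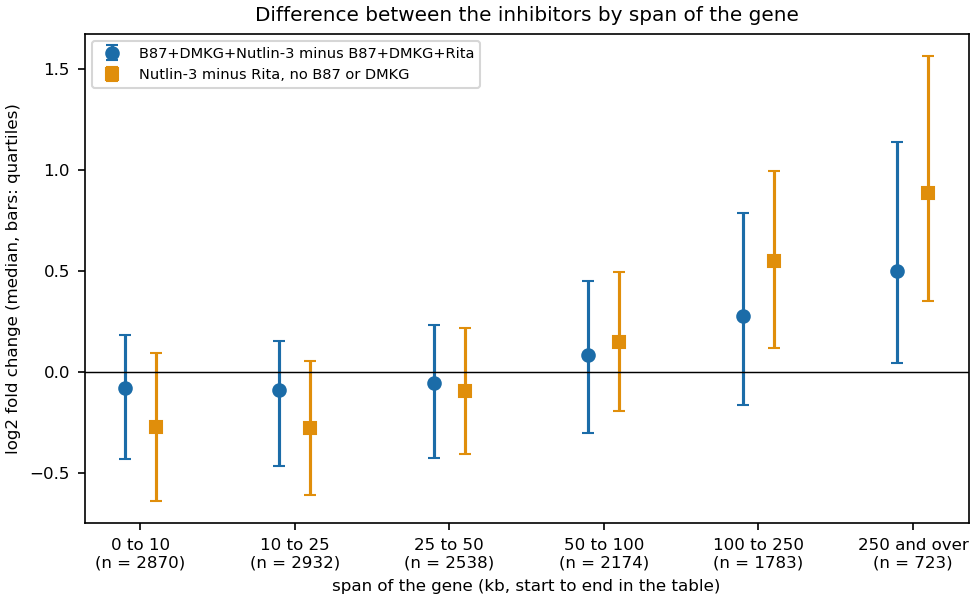
Median log2 fold change (vertical axis, bars for the quartiles) of tested genes by span from start to end in the table (horizontal axis, kb), for the Nutlin-3 triple minus the Rita triple (blue circles) and for Nutlin-3 minus Rita without B87 and DMKG (orange squares). The medians lie below 0 for genes under 50 kb and reach 0.50 between the triples and 0.89 without the pair for genes from 250 kb.

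Whether the inhibitors differ in the same genes with and without B87 and DMKG was asked from libraries that the 2 comparisons do not share. Between Nutlin-3 and Rita without the pair 8321 rows (51.2%) were called. In both comparisons 4820 rows were called, 61.4% of the calls between the triples and 57.9% of those without the pair. Of these, 3972 had the same direction and 848 the opposite one, 306 higher in the Nutlin-3 triple but lower in Nutlin-3 alone and 542 the other way. The interaction was called in 5949 rows (36.6%), which included all 848 of opposite direction and 1223 of the same direction. DLG1, a polarity scaffold, was lower between the triples (-2.30 ± 0.13) and higher without the pair (1.21 ± 0.14, interaction -3.51 ± 0.19, limma adjusted p = 3.1e-15). OTUD6B-AS1, an antisense RNA under the same doubt on strand, was at -2.52 with the pair and 1.74 without. CUL3 and HBS1L belong to the same class. On the positive side of the interaction stood JUN, FOS and TIPARP described above, with C1orf116, SPDYE8P and MIR210HG, the host of a hypoxia-induced microRNA. C1orf116 was lower in both comparisons, at -3.49 ± 0.49 with the pair and -7.10 ± 0.53 without. Its Nutlin-3 libraries without the pair held 0, 0 and 7.25, so the size of the latter value and of the interaction depends on the pseudocount. The same limit holds for MIR210HG, at 0, 1.6 and 0 in Nutlin-3 libraries without the pair.

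Each triple treatment was finally placed against B87+DMKG, the pair both contain. Adding Nutlin-3 changed 9570 rows (58.9%), 4314 of them higher (26.5%) and 5256 lower (32.3%), and adding Rita changed 10937 rows (67.3%), 5383 higher (33.1%) and 5554 lower (34.2%). Because these comparisons share the B87+DMKG libraries, only their values are set side by side. The split depended on the scaling, with 31.9% of the calls higher for Nutlin-3 under equal library totals and 56.0% with quantile normalization, against 45.1%, and 32.7% and 53.7% for Rita, against 49.2%. Equal totals moved the median of all rows by -0.14 for Nutlin-3 and -0.24 for Rita, and quantile normalization by 0.14 for Nutlin-3. CDKN1A was higher by 3.08 ± 0.10 with Nutlin-3 added and 2.61 ± 0.10 with Rita added, and GDF15 by 5.00 ± 0.18 and 4.36 ± 0.18. PMAIP1 was higher by 1.41 ± 0.15 and 4.32 ± 0.15, and MDM2 by 1.83 ± 0.09 and 0.92 ± 0.09. MCL1 was lower with Nutlin-3 added (-1.06 ± 0.16) and did not pass the test with Rita added (0.07 ± 0.16), and PARP1 was -0.83 ± 0.06 and 0.20 ± 0.06. EGR1, at a mean of 33495 in B87+DMKG and 374 in Control libraries, was -0.81 ± 0.20 with Nutlin-3 added and -0.94 ± 0.20 with Rita added. ASNS was 1.48 ± 0.12 and 2.88 ± 0.12, with B87+DMKG at 2252.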

How the data were processed

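RNA of H460 cells was extracted with RNeasy Plus Micro columns and made into TruSeq stranded mRNA libraries, per the labels. The authors deposited 1 table of normalized read counts, a signal that DESeq2 made from counts, per the submitters' processing notes, which also name STAR 2.4.0, SAMtools, Picard and FastQC. These notes name the mouse build mm10, whereas the file header names hg19 and the genes are human. The table holds 74834 rows, 51656 without a gene symbol. Dividing each library by its smallest step gave whole reads for 100% of values (tolerance 0.1 of a step; the steps of Nutlin-3 triple replicate 1 and B87+DMKG replicate 4, near 1.01, did not pass a separate check of whole reads), 33.4 M to 82.5 M per library over the series. Rows with a mean of at least 10 over the 31 libraries were kept (16259), and log2(value + 1) was fitted by group with limma 3.58.1 in R 4.3.3 (trend, 23 residual and 7.14 prior degrees of freedom), two-sided, with Benjamini-Hochberg adjustment over all rows tested. edgeR 4.0.16 and DESeq2 1.42.0 on the recovered reads, other pseudocounts (0.5 and 5), filters and scalings (same total, quantile), a replicate block and leaving out each library were alternatives, and the code was tested on simulated data. Members and lists were chosen with earlier results of these data known. Named genes are the 12 called rows that rose most and the 12 that fell most, of 1 symbol with a mean of at least 50 and no overlap, up to 4 called members of each list by size, the 6 largest interactions each way and a fixed set of 33 genes. Some members of these lists are not reported here. Other list members were named after their values were seen. Floors of 3 counts cover counting error only. Promoters came from RefSeq (GRCh38.p14).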

Additional observations from a re-analysis of the deposited data

Results flagged for a closer look

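In 13 of 301 gene and group sets of 4 libraries, 1 library stood apart from the other 3, where chance gives about 1 set in 20. Among Nutlin-3 triple libraries the normalized read count that stood apart was the lowest for RGL1 (195), HSPB8 (59.5) and SUCLA2 (1292), and the highest for ARRDC4 (28.8), PCK2 (1744) and DDIT3 (369.5). Among Rita triple libraries it was the lowest for PRDX4 (16274), NFKBIA (4444), IL6 (25622) and MIR210HG (22.7), and the highest for RGPD1 (9.33), DNAJC3 (886) and PPP1R10 (2886).

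The interaction term, the change of the Nutlin-3 minus Rita difference with B87 and DMKG, was examined in 52 genes: the fixed set, the largest interactions and the others whose interaction is given in the text. It passed in 43 of them (limma, adjusted p under 0.05 over 16259 rows), in 36.6% of all rows and in 103 of the 151 named genes that were kept. The largest interactions were taken from rows already called, so the share among the 52 follows in part from their choice and is no result. The log2 difference was negative, that is lower with the pair, for ST20-AS1 (-4.71), CUL3 (-4.67), OTUD6B-AS1 (-4.26), HBS1L (-3.80), HIC1 (-3.79), DLG1 (-3.51), NRARP (-2.82), ADM2 (-2.75), AREG (-2.63), FAM43A (-2.63), HERPUD1 (-2.46), RND3 (-2.40), PPP1R10 (-1.84), MDM2 (-1.80), HMOX1 (-1.63), FAS (-1.49), CHAC1 (-1.42), MCL1 (-1.35), TXNRD1 (-1.32), PMAIP1 (-1.29), IL6 (-1.14), CDKN1A (-1.05), TP53I3 (-0.94), BBC3 (-0.94), ATF4 (-0.94), ASNS (-0.90), SESN2 (-0.89), VEGFA (-0.88), PARP1 (-0.73) and MYC (-0.35). It was positive for C1orf116 (3.62), JUN (3.51), MIR210HG (2.97), TIPARP (2.86), SPDYE8P (2.77), FOS (2.73), DDIT4 (2.21), EGR1 (2.21), MALAT1 (1.82), CYP1B1 (1.38), FOSB (1.11), ATF3 (0.92) and SLC2A1 (0.71). For ST20-AS1, HIC1, C1orf116 and MIR210HG a group lay near 0, so the size of the difference is uncertain.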

How the results depend on the processing

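The number of rows called between the triples was 7761 with a replicate block, and 8204 between Nutlin-3 and Rita, 5786 for the interaction, 9480 for Nutlin-3 added to B87+DMKG and 10829 for Rita added. With the block, 0 of 157 named genes changed call between the triples or for either inhibitor added, 6 changed between Nutlin-3 and Rita, and 3 for the interaction, where FOSB and ATF3, near the threshold, were 2 of the 3. Same-numbered deviations correlated at -0.168 to -0.0579 between the triples, and at -0.207 to 0.183 over the other pairs of these 5 groups, none of which had every number over 0.1, so the numbers were not taken as pairs. Leaving out 1 library gave 7275 to 7577 called between the triples, 6927 to 8629 between Nutlin-3 and Rita, 4938 to 6632 for the interaction, 8872 to 9623 for Nutlin-3 added and 10400 to 10908 for Rita added. Requiring a log2 fold change of at least 1 left 2806, 2478, 2153, 2973 and 4286 rows in the same order. Between the triples edgeR called 7993 rows, DESeq2 8209, limma on the 2 groups alone 9019, and no filter on low values 8250 of 36058. Of 149 named genes called, 12 lost the call in at least 1 setting (BIK, CHAC1, DDIT3, FDXR, IL1A, KITLG, MT1A, PRDX1, PRDX3, SESN2, SLC7A11 and TXNRD1), and HMOX1, TP53I3 and TRIB3 gained one in at least 1. With limma on the 2 groups alone, only KITLG and SLC7A11 of these 12 lost it. CA9, not called, changed sign with edgeR (-0.0026), DESeq2 (-0.0099) and spanned -0.322 (without Rita triple replicate 3) to 0.384 when libraries were left out, and SPDYE8P, not called either, spanned -0.0948 to 0.11. List medians that changed sign with the same total in every library were p53 feedback (0.0319), BCL2 family (0.0444), glycolysis (0.079), glucose-sensing (0.0949), aminoacyl-tRNA synthetases (0.034), heat shock (0.0696) and the tricarboxylic acid cycle (0.0429), and with quantile normalization p53 feedback (0.0065), BCL2 family (0.0037), glycolysis (0.121), glucose-sensing (0.09), aminoacyl-tRNA synthetases (0.0486), NRF2 targets (0.0015) and the tricarboxylic acid cycle (0.061). The cause was not tested. At these depths, rows at a few counts, such as CA9, are limited by depth.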

Other observations

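Rows that name no gene symbol made up 2416 of the 16259 tested, of which 448 were higher and 479 lower in the Nutlin-3 triple, with a median log2 fold change of -0.04. Rows that name several genes (507) had 138 higher and 120 lower, and rows of a gene with a small RNA inside it (316) had 45 higher and 79 lower. Rows on chromosome M, the mitochondrial genome, took 3.34% to 3.67% of the normalized reads in the Nutlin-3 triple and 2.47% to 3.33% in the Rita triple. On the first principal component of the 31 libraries (26.5% of the variance) the Nutlin-3 triple lay at -19.7 to -0.43 and the Rita triple at 66.1 to 74.3.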
